A study of Mus musculus with 6 samples.

Results

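The Hox genes are the homeobox genes of the clusters A, B, C and D, and their transcripts were measured in cultured vascular smooth muscle cells of the mouse aorta. Members were every gene whose symbol is Hox, a cluster letter from a to d and a number, the paralogue position. These were 36 of the 27502 genes listed, 11 in cluster A, 10 in cluster B, 8 in cluster C and 7 in cluster D. The GENCODE M21 annotation holds 39 such genes, and the other 3 (Hoxc11, Hoxd11 and Hoxd12) were not analysed here. The siEzh2 group was 3 samples of cells given short interfering RNA against Ezh2, and the control group was 3 samples of the same kind of cells, both for 48 hours. Ezh2 encodes the main catalytic subunit of Polycomb repressive complex 2. How the control cells were treated, and the strain, age and number of the mice, are not stated in the sources used here. Nor do the labels state that samples are separate cultures or mice, so a p-value here covers only sample-to-sample spread, possibly technical.

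Hox genes encode homeodomain transcription factors that set the identity of body segments along the head-to-tail axis. Within a cluster, genes of low position number are used early and near the head and genes of high number late and near the tail, and mesenchymal cells of the adult often keep the Hox pattern of the level they arose from. Hox clusters are classical targets of Polycomb repressive complexes, which place a repressive histone mark over clusters or parts of clusters that are not in use, while trithorax group proteins keep genes in use active. Hox proteins bind DNA together with TALE homeodomain cofactors of the Pbx and Meis families.

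The values were FPKM, read fragments scaled by the length of the gene and the depth of the library, so levels of different genes can be set side by side. Whole reads recovered from the steps of the values summed to between 16080005 and 17553743 in siEzh2 samples and between 18248440 and 18753124 in control samples. Ezh2 had 1.201, 1.09 and 1.05 FPKM in siEzh2 samples, against 3.41, 3.59 and 3.88 FPKM in control samples (log2 difference −1.13, adjusted p = 5.15e-05 by limma and Benjamini-Hochberg). Among defining smooth muscle transcripts, Acta2 (smooth muscle actin) averaged 537 FPKM in siEzh2 and 699 FPKM in control samples. Myh11 (smooth muscle myosin) averaged 1.12 and 1.83 FPKM, Cnn1 (calponin) 1.04 and 1.14 FPKM and Tagln (transgelin) 0.228 and 0.253 FPKM in siEzh2 and control samples, and 67.9% of the exon bases of Tagln lie in antisense genes.

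Upstream sequence is shown for 3 genes that span the range of levels found here: Hoxa5, the most abundant Hox transcript, Hoxb4, a middling transcript that passed the test, and Hoxd10, which had 0 reads in siEzh2 samples and 1 read in control samples. Each is the 250 bases before the gene's start in RefSeq (GRCm38.p6), 5′ to 3′ in the sense of the gene, with the dinucleotide CG in capitals.
Hoxa5 upstream, chr6:52204588-52204837, minus strand: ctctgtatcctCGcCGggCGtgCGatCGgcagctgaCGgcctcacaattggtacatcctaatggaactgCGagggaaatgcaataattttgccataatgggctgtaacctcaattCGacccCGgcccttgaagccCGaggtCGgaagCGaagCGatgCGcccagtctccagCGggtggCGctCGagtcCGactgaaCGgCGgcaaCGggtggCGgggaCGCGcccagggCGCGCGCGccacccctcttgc
Hoxb4 upstream, chr11:96318017-96318266, plus strand: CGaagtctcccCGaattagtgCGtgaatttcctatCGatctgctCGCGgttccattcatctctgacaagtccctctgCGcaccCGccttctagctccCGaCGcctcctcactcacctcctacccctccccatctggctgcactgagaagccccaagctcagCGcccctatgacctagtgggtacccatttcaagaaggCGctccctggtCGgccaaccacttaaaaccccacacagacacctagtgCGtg
Hoxd10 upstream, chr2:74691641-74691890, plus strand: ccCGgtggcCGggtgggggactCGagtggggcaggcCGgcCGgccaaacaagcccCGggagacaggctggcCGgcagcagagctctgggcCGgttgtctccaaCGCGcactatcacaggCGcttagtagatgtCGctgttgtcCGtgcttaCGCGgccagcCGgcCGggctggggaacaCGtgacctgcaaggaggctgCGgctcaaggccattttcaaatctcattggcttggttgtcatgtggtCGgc

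CG, which reads the same on both strands, occurred 28 times before Hoxa5, 14 times before Hoxb4 and 20 times before Hoxd10. At least as many were held by 7.6%, 29.4% and 17.9% of all 32851 promoters in the RefSeq table. Promoters were matched for 20 of the 36 Hox genes. The median was 13 CG in the 8 of these that passed the filter of the test (range 6 to 28) and 13 in the 12 that did not (range 3 to 35), beside 6 over all promoters. Hoxa10, with promoters of 20 and 7 CG, was counted by the higher, a choice not made over all promoters. The 2 ranges overlapped, so the CG count did not separate expressed members from those under the filter.

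Paralogues of the same position are alike in sequence and could share reads. Over whole GENCODE M21 transcripts, 3 of 2516 windows of 50 bases in Hoxb4 also occurred in another listed Hox gene (Hoxa6), as did 0 of 2785 in Hoxb5 and 1 of 2574 in Hoxb9 (Hoxc9). Hoxc5 shared 3.92% of its windows with Hoxc10, whose exons it overlaps.

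Transcripts were found from clusters A, B and C and hardly any from cluster D. A gene was counted as expressed, and tested, where its mean was at least 1 FPKM in at least 1 group. By this filter 19 of the 36 Hox genes were expressed, among them Hoxa2 to Hoxa7, Hoxb3 to Hoxb9, and Hoxc4, Hoxc5, Hoxc6, Hoxc8 and Hoxc13. Of the 19, Hoxc5 passed through the control mean alone and Hoxc13 through the siEzh2 mean alone. The other 17 were under it, among them all 7 genes listed for cluster D. Over 10 FPKM stood 3 genes, Hoxa5, Hoxb6 and Hoxb7, and the 16 other expressed genes lay between 1 and 10 FPKM in at least 1 group.

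**Figure D1:**
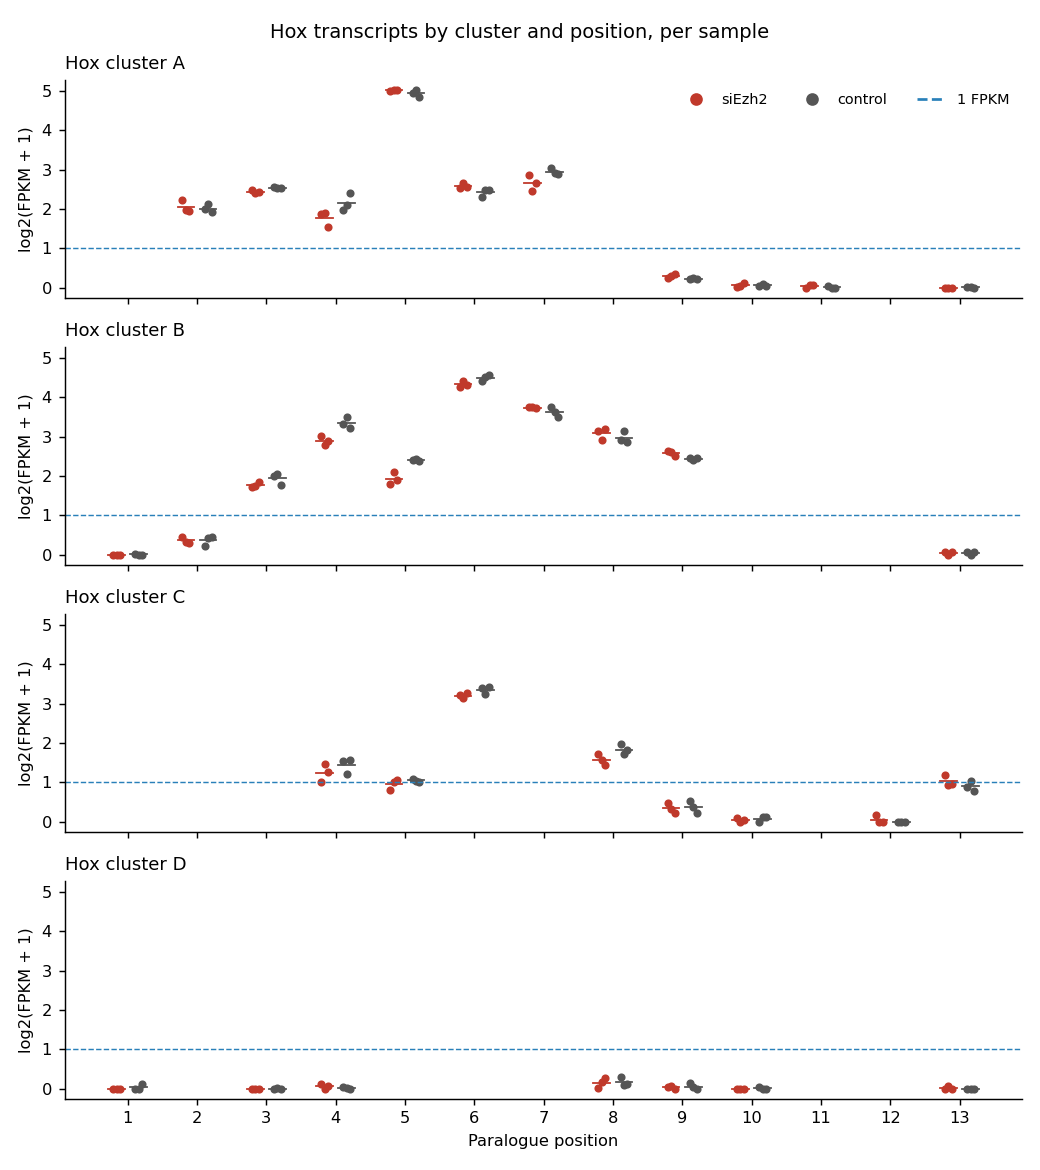
Levels of the Hox genes as log2(FPKM + 1) (vertical axis) by paralogue position (horizontal axis), with 1 panel a cluster. Points are samples, siEzh2 in red at the left and control in grey at the right of each position, short lines are group means, and the dashed line is 1 FPKM. Levels peak at position 5 in cluster A and position 6 in clusters B and C, and cluster D stays under the line.

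Hoxa5, which patterns the neck and upper thorax and the lung, was the most abundant Hox transcript. It had 30.9, 31.2 and 31.4 FPKM in siEzh2 samples and 29.7, 31.6 and 27.5 FPKM in control samples. The groups overlapped, and the difference did not pass the test (log2 difference 0.08, 95% interval −0.06 to 0.21, adjusted p = 0.299 by limma and Benjamini-Hochberg). Hoxa5 alone made up 24.8% to 25.5% of the summed FPKM of all Hox genes in siEzh2 samples and 21.5% to 23.6% in control samples.

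Hoxb6, a gene of trunk patterning, led cluster B with 18.04, 20.3 and 18.8 FPKM in siEzh2 samples, against 20.3, 21.9 and 22.5 FPKM in control samples. The highest siEzh2 sample lay just above the lowest control sample (log2 difference −0.17, 95% interval −0.31 to −0.03, adjusted p = 0.0574, not called). Hoxc6, a gene of thoracic position, led cluster C with 8.24, 7.78 and 8.66 FPKM in siEzh2 samples, against 9.44, 8.43 and 9.80 FPKM in control samples. Its groups also overlapped (log2 difference −0.15, 95% interval −0.30 to 0.01, adjusted p = 0.106). Hoxd8 had the highest level in cluster D, at 0.0227, 0.124 and 0.209 FPKM in siEzh2 samples and 0.239, 0.0777 and 0.0981 FPKM in control samples, which rest on 17 and 21 reads over the group.

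In control samples the order after Hoxa5 (29.6 FPKM) and Hoxb6 (21.6 FPKM) was Hoxb7 (11.3), Hoxb4 (9.23), Hoxc6 (9.22), Hoxb8 (6.88), Hoxa7 (6.69) and Hoxa3 (4.82 FPKM). Hoxa5, Hoxb6 and Hoxb7 were apart from each other over the samples, whereas the ranges of Hoxb7 and Hoxb4, of Hoxb4 and Hoxc6, and of Hoxb8 and Hoxa7 overlapped. From Hoxb9 (4.40 FPKM) down to Hoxc8 (2.58 FPKM) each gene overlapped the next in the order. Hoxc4 (1.73), Hoxc5 (1.08) and Hoxc13 (0.869 FPKM) were the lowest named.

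Apart from Hoxc13, the expressed genes of a cluster were neighbours among the listed Hox genes, and levels dropped where each run ended. In cluster A, on the minus strand of chromosome 6 (mm10), the run ended between Hoxa7 and Hoxa9. Hoxa7, a gene of thoracic patterning, had 6.29, 4.45 and 5.33 FPKM in siEzh2 samples and 7.20, 6.50 and 6.37 FPKM in control samples. Hoxa9, a regulator of blood progenitors, had 0.189, 0.224 and 0.278 FPKM in siEzh2 samples and 0.167, 0.191 and 0.164 FPKM in control samples. The edge therefore stood at the same place in all 6 samples, with every sample of Hoxa7 above 4 FPKM and every sample of Hoxa9 under 0.3 FPKM.

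Cluster B, on the plus strand of chromosome 11 (96194316 to 96368256), had an edge on each side. At the low-number side Hoxb2, a gene of the hindbrain, had 0.374, 0.261 and 0.231 FPKM in siEzh2 samples and 0.173, 0.351 and 0.371 FPKM in control samples. Hoxb3, its neighbour, had 2.33, 2.37 and 2.60 FPKM in siEzh2 samples and 3.03, 3.15 and 2.43 FPKM in control samples. Hoxb3 shares 52.9% and Hoxb2 27.3% of its exon bases with the antisense gene Hoxb3os, and no source used here says whether the counting was by strand, so both values are uncertain. At the high-number side Hoxb9 was expressed, while Hoxb13, a gene of the tail end and the prostate that lies 74.0 kb away, had 0.0564, 0 and 0.0521 FPKM in siEzh2 samples and 0.0496, 0 and 0.0488 FPKM in control samples.

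Cluster C, on the plus strand of chromosome 15 (102921103 to 103036852), ended at Hoxc8 and then held 1 expressed gene apart from the run. Hoxc9, which sets thoracic motor neuron identity, had 0.384, 0.258 and 0.166 FPKM in siEzh2 samples and 0.451, 0.307 and 0.177 FPKM in control samples. Hoxc13, a gene of hair and nail, had 1.29, 0.925 and 0.934 FPKM in siEzh2 samples, against 0.845, 1.04 and 0.722 FPKM in control samples. Its neighbour Hoxc12 had 0.121, 0 and 0 FPKM in siEzh2 samples and was listed at 0 in every control sample. The groups of Hoxc13 overlapped, and since it passed the filter only through the group in which it was higher, its difference is not read as a result.

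Members under the filter had low read counts in both groups. Summed over the 17 genes under the filter there were 66, 63 and 71 reads in siEzh2 samples and 74, 72 and 64 reads in control samples. Of these, Hoxa9, Hoxb2 and Hoxc9 held 150 of the 200 reads of siEzh2 samples and 154 of the 210 reads of control samples, and each of the other 14 had at most 17 reads over the siEzh2 and 21 over the control samples. The groups overlapped for all 17, and over the 15633 genes under the filter with a read in at least 1 sample 12.7% had groups that did not overlap. In siEzh2 samples 5 of the 17 Hox genes, Hoxa13, Hoxb1, Hoxd1, Hoxd3 and Hoxd10, had 0 reads, which allows at most 0.0140 to 0.0324 FPKM over the group (3 reads, counting error only). The 2 with 0 reads in control samples were Hoxc12 and Hoxd13, a gene of the digits, each with 2 reads in siEzh2 samples. The limit of 0.0140 FPKM is that of Hoxd3, with 62.35% of its exon bases in other genes of the same strand (Hoxd4: 52.31%). How reads from such shared bases were counted is not stated, so the counts and limits of both genes are uncertain. Cluster D as a whole, on chromosome 2 (74668310 to 74765142), had 29 reads in siEzh2 and 34 reads in control samples. With so few reads, a modest difference in a single gene of cluster D was not detectable.

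The comparison of siEzh2 with control cells gave few calls among the expressed Hox genes. Hoxb4 and Hoxb5 fell and Hoxb9 rose, and 16 of the 19 did not pass the test (limma on log2(FPKM + 1), Benjamini-Hochberg adjusted p under 0.05). Over all 11869 tested genes 24.1% were called higher, 22.7% lower and 46.9% in either direction, so that the 15.8% of Hox genes called was below the background. The median log2 difference was −0.11 over the 19 Hox genes and 0.01 over all tested genes, and 11 Hox genes were below 0 and 8 above it. Without regard to sign, the median size of the difference was alike, 0.157 over the Hox genes and 0.162 over all tested genes. The median standard error was 0.08 for Hox genes and 0.05 for all tested genes. At an unadjusted p under 0.05 stood 9 of the 19 (47.4%), beside 54.7% of all tested genes. All 3 called genes were among the 17 that averaged at least 1 FPKM in both groups. Fewer cells with a transcript and less of it per cell cannot be told apart in these bulk samples.

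**Figure D2:**
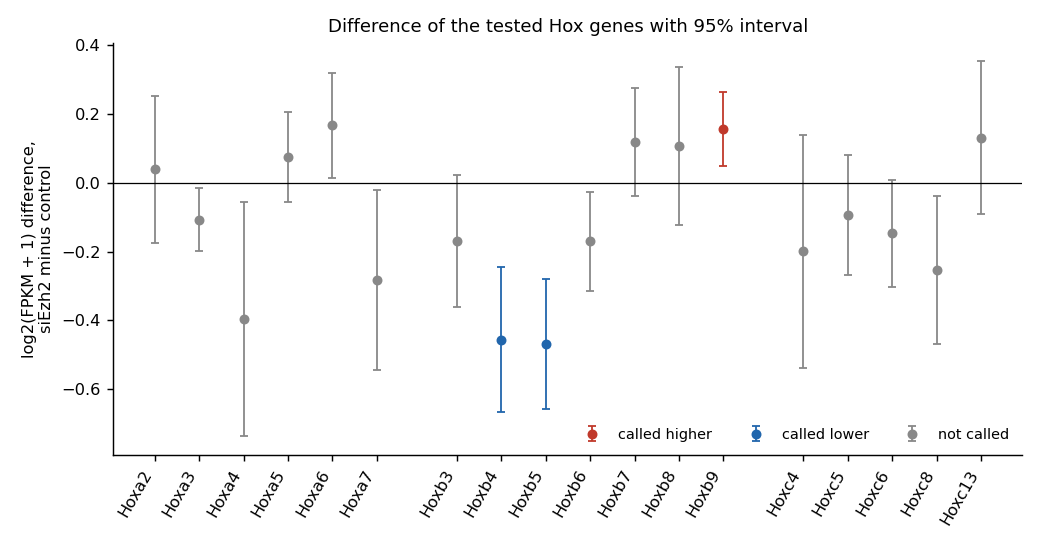
Difference in log2(FPKM + 1), siEzh2 minus control (vertical axis), for tested Hox genes ordered by cluster and position (horizontal axis). Points are limma estimates with unadjusted 95% intervals from 3 samples a group; Hoxb4 and Hoxb5 (blue) were called lower, Hoxb9 (red) higher, and the grey genes were not called.

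Hoxb4 (ENSMUSG00000038692, chromosome 11, 96318267 to 96321638), best known for the expansion of blood stem cells, had 7.03, 5.90 and 6.43 FPKM in siEzh2 samples, against 9.004, 10.3 and 8.35 FPKM in control samples. All siEzh2 samples were below all control samples. The mean was 6.45 ± 0.563 FPKM in siEzh2 and 9.23 ± 1.01 FPKM in control samples (SD, n = 3 each), 1.43 times lower. The log2 difference was −0.46 (SE 0.0875, limma with Benjamini-Hochberg adjusted p = 0.00697), from 843 reads in siEzh2 and 1318 reads in control samples. No exon base of Hoxb4 lies in another gene, and the call held in all 14 alternative settings (log2 difference −0.52 to −0.38, highest adjusted p = 0.0249).

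Hoxb5 (ENSMUSG00000038700, chromosome 11, 96303336 to 96306121), which acts in the enteric nervous system, lung and shoulder, lies 12.1 kb upstream of Hoxb4. It had 2.50, 3.31 and 2.72 FPKM in siEzh2 samples, against 4.30, 4.36 and 4.23 FPKM in control samples. The groups did not overlap, and the siEzh2 samples varied more than the control samples. The mean was 2.84 ± 0.419 FPKM in siEzh2 and 4.30 ± 0.0632 FPKM in control samples (SD, n = 3 each), 1.51 times lower, with a log2 difference of −0.47 (SE 0.0776, limma with Benjamini-Hochberg adjusted p = 0.00396). These values rest on 406 reads in siEzh2 and 666 reads in control samples, and the call also held in all 14 alternative settings (−0.60 to −0.40, highest adjusted p = 0.0165).

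The antisense transcript Hoxb5os, which overlaps 3.59% of the exon bases of Hoxb5, fell in the same samples. It had 5.001, 4.99 and 4.38 FPKM in siEzh2 samples, against 5.82, 6.28 and 5.73 FPKM in control samples (log2 difference −0.26, adjusted p = 0.0122 by limma and Benjamini-Hochberg). Its part in the value of Hoxb5 was not tested. Of 20 noncoding RNAs of the Hox loci, 8 were listed and 2 tested. Hoxaas2, of cluster A, was the other, at 1.92 ± 0.262 FPKM in siEzh2 and 2.35 ± 0.122 FPKM in control samples (SD, n = 3 each, log2 difference −0.20, adjusted p = 0.0604). Hotair, of cluster C, known for its link to Polycomb complexes in human cells, had 0, 0.0284 and 0 FPKM in siEzh2 samples and was listed at 0 in every control sample.

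Hoxb9 (ENSMUSG00000020875, chromosome 11, 96271457 to 96276595), a gene of the lower thorax, was the only Hox gene called higher. It had 5.22, 5.15 and 4.71 FPKM in siEzh2 samples, against 4.45, 4.31 and 4.46 FPKM in control samples, with no overlap. The mean was 5.03 ± 0.276 FPKM in siEzh2 and 4.40 ± 0.0846 FPKM in control samples (SD, n = 3 each), 1.14 times higher, with a log2 difference of 0.16 (SE 0.0442, adjusted p = 0.0286 by limma and Benjamini-Hochberg). The difference was above 0 in all 14 alternative settings (0.13 to 0.20), some of which cannot change it. The call was lost in 10 of the 14. It was lost without siEzh2 sample 1 or 2 and without control sample 1, 2 or 3 (adjusted p = 0.0644 to 0.086), and the adjusted p ranged from 0.0134 to 0.117 over the alternatives, highest with limma-voom on recovered reads. None of the other position 9 genes was expressed, so Hoxb9 had no paralogue to be set against.

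**Figure D3:**
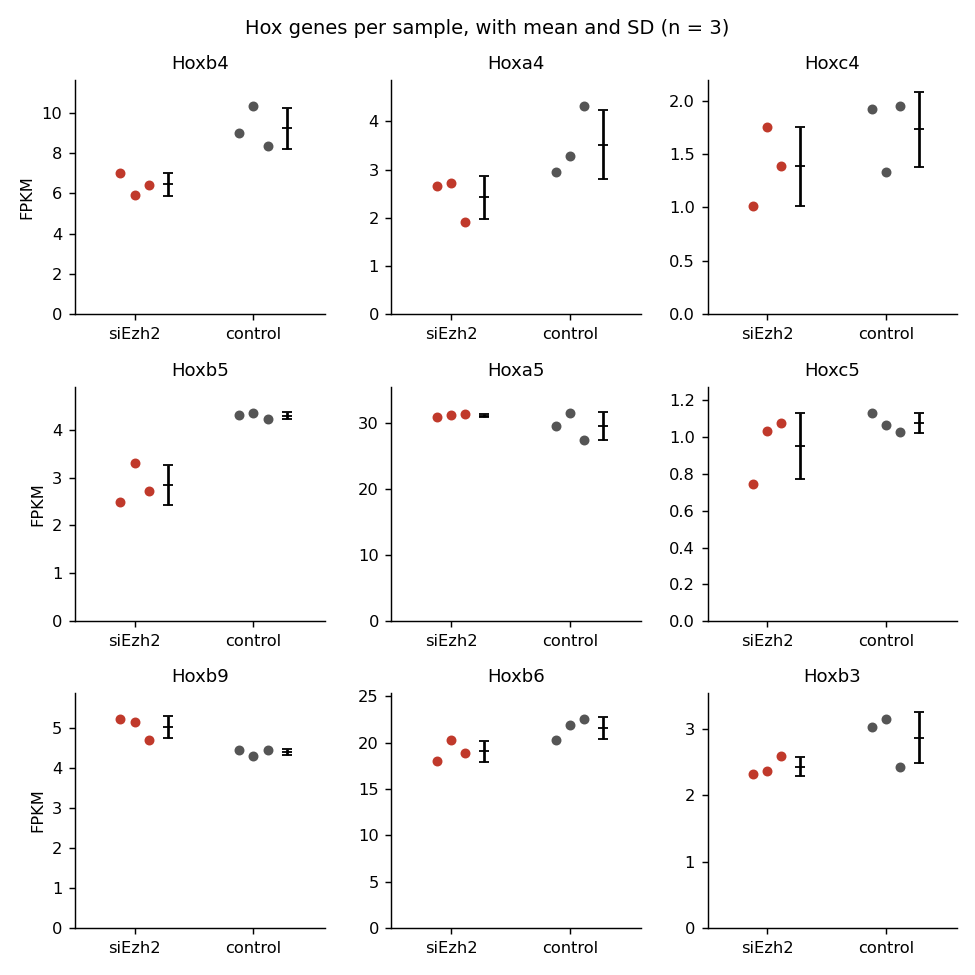
FPKM (vertical axis, from 0) of Hoxb4 and Hoxb5 with their tested paralogues, and of Hoxb9, Hoxb6 and Hoxb3, in siEzh2 (red, left) and control (grey, right) samples. Points are samples and black bars are the mean ± SD of 3 samples; only the panels of Hoxb4, Hoxb5, Hoxb9 and Hoxa4 show groups that do not overlap.

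Among the paralogues of Hoxb4, the position 4 gene of cluster A was also lower in every siEzh2 sample. Hoxa4 had 2.65, 2.71 and 1.91 FPKM in siEzh2 samples, against 2.95, 3.28 and 4.33 FPKM in control samples. Its log2 difference of −0.40 (SE 0.14, 95% interval −0.74 to −0.06) did not pass the test (adjusted p = 0.0588 by limma and Benjamini-Hochberg), and 16% of its exon bases lie in an antisense gene. Hoxc4 had 1.02, 1.75 and 1.39 FPKM in siEzh2 samples and 1.92, 1.33 and 1.95 FPKM in control samples, with overlapping groups (log2 difference −0.20, 95% interval −0.54 to 0.14, adjusted p = 0.283). Summed over the 4 listed genes of position 4, the level was 10.8, 10.4 and 9.78 FPKM in siEzh2 samples and 13.9, 15.0 and 14.6 FPKM in control samples, a log2 ratio of −0.49 with no overlap. The called gene Hoxb4 held most of it, on average 6.45 of 10.3 FPKM in siEzh2 and 9.23 of 14.5 FPKM in control samples.

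At position 5 neither paralogue of Hoxb5 passed the test. Hoxc5, the lowest of them, which averaged 0.952 FPKM in siEzh2 and 1.08 FPKM in control samples, had 0.745, 1.03 and 1.08 FPKM in siEzh2 samples and 1.13, 1.07 and 1.03 FPKM in control samples (log2 difference −0.09, 95% interval −0.27 to 0.08, adjusted p = 0.324 by limma and Benjamini-Hochberg). With Hoxa5 at a mean of 31.2 FPKM in siEzh2 and 29.6 FPKM in control samples, the sum over position 5 was 34.96 FPKM in siEzh2 and 34.96 FPKM in control samples.

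The 4 differences between a called gene and its paralogues were tested themselves, on the within-sample difference of log2(FPKM + 1) by a two-sided exact permutation test, in which 3 against 3 samples cannot go below p = 0.1. The log2 difference of Hoxb5 minus that of Hoxa5 was −0.54 (SE 0.0988, exact p = 0.1, adjusted over the 4 pairs 0.2), and minus that of Hoxc5 it was −0.37 (SE 0.0744, exact p = 0.1, adjusted 0.2). Both reached the smallest p the design allows, and the groups did not overlap in either. The pairs were built from genes called in these same 6 samples, so a separation of Hoxb5 from little-changed paralogues is no independent evidence. Hoxc5 entered only through its control mean, the higher of its means, so the difference from it depends on the filter. Hoxb4 differed from Hoxc4 by −0.26 (SE 0.271, exact p = 0.4, adjusted 0.53) and from Hoxa4 by −0.06 (SE 0.23, exact p = 0.9, adjusted 0.9). The difference from Hoxa4 changed sign with single samples left out (−0.25 to 0.06).

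Along cluster B the expressed genes were grouped, by the sign of their difference, into a lower-numbered and a higher-numbered stretch. Hoxb3, Hoxb4, Hoxb5 and Hoxb6 all had a lower mean in siEzh2 samples (log2 differences −0.17, −0.46, −0.47 and −0.17), and Hoxb7, Hoxb8 and Hoxb9 all a higher one (0.12, 0.11 and 0.16). Of these 7 genes, Hoxb4, Hoxb5 and Hoxb9 passed the test, a share of 42.9% that was near the 46.9% of all tested genes. The summed level of Hoxb3 to Hoxb6 was 29.9, 31.9 and 30.6 FPKM in siEzh2 samples and 36.6, 39.8 and 37.5 FPKM in control samples. That of Hoxb7 to Hoxb9 was 25.3, 24.2 and 24.97 FPKM in siEzh2 samples and 23.4, 23.4 and 21.03 FPKM in control samples. The ratio of the higher-numbered to the lower-numbered sum was 0.848, 0.759 and 0.816 in siEzh2 samples, against 0.638, 0.587 and 0.560 in control samples, with no overlap. Since the sign in these same samples set the stretches, that choice favours such a separation, which is no independent evidence.

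The border lies between Hoxb7 and Hoxb6, 2.31 kb apart, within a run of 76.5 kb from the start of Hoxb9 to the end of Hoxb3. This split was chosen after the values were seen and has no test. The sign of each of the 7 differences was the same in all 14 alternative settings, which refit these same samples. Changing the filter, the variance model or adding a block for the replicate number leaves the estimate unchanged, so those settings could not change a sign. Hoxb7, a factor of trunk mesenchyme, had 12.4, 12.5 and 12.2 FPKM in siEzh2 samples and 12.4, 11.3 and 10.3 FPKM in control samples (adjusted p = 0.181 by limma and Benjamini-Hochberg). Without control sample 1 it was called higher (log2 difference 0.18, adjusted p = 0.0432, range over the alternatives 0.0432 to 0.428). Hoxb3 had overlapping groups, since control sample 3 was low, and was called lower without that sample (−0.25, adjusted p = 0.0165, range over the alternatives 0.0165 to 0.305).

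**Figure D4:**
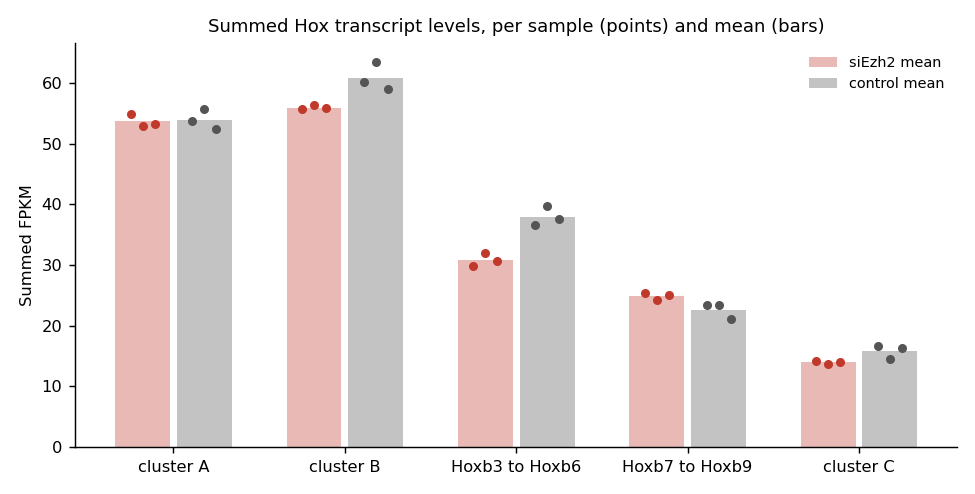
Summed FPKM (vertical axis, from 0) of clusters A, B and C and of 2 stretches of cluster B (horizontal axis), in siEzh2 (red, left) and control (grey, right) samples. The stretches were chosen after the values were seen. Bars are means and points are the 3 samples; the sum of Hoxb3 to Hoxb6 is lower in every siEzh2 sample and that of Hoxb7 to Hoxb9 higher, while the groups of cluster A overlap.

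Clusters A and C, with 7 and 5 tested genes, gave no called gene, beside 46.9% called over all tested genes. In cluster A, Hoxa3, a gene of the thymus, parathyroid and carotid body, had 4.59, 4.26 and 4.36 FPKM in siEzh2 samples, against 4.91, 4.78 and 4.76 FPKM in control samples. The groups did not overlap, but the difference was small and did not pass the test (log2 difference −0.11, adjusted p = 0.0576 by limma and Benjamini-Hochberg), and 25.4% of its exon bases lie in antisense genes. Hoxa7 was also lower in each siEzh2 sample (−0.28, adjusted p = 0.0741, 20.4% of exon bases antisense), and Hoxa6 was higher in each (0.17, adjusted p = 0.0719). Hoxa2, a gene of the hindbrain and the branchial arches, differed by 0.04. In cluster C, Hoxc8, a gene of lower thoracic identity, had 2.28, 1.99 and 1.72 FPKM in siEzh2 samples and 2.90, 2.30 and 2.53 FPKM in control samples, with no overlap (−0.25, adjusted p = 0.0572).

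Together 8 of the 19 tested Hox genes (42.1%) had groups that did not overlap, namely Hoxa3, Hoxa4, Hoxa6, Hoxa7, Hoxb4, Hoxb5, Hoxb9 and Hoxc8. Over all tested genes the share was 58.1%. The 6 uncalled genes nearest to the threshold, Hoxc8, Hoxb6, Hoxa3, Hoxa4, Hoxa6 and Hoxa7, had adjusted p between 0.0572 and 0.0741 by limma and Benjamini-Hochberg. Of these, Hoxa6 was not called in any alternative setting and each of the others gained a call in at least 3 of 14. The number of Hox genes called lower thus depended on the setting, from 2 to 6. It was 5 without siEzh2 sample 1, which added Hoxa3, Hoxa7 and Hoxc8, and 4 without control sample 2, which added Hoxc6 and Hoxc8.

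Summed by position across clusters, the groups did not overlap at positions 3, 4 and 6. Position 3 had 6.83 FPKM in siEzh2 and 7.69 FPKM in control samples (log2 ratio −0.17), and position 6 had 32.3 and 35.2 FPKM in siEzh2 and control samples (−0.12). At positions 2, 5, 7, 8 and 9 the sums overlapped between the groups. Position 9, which is almost all Hoxb9, had 5.55 FPKM in siEzh2 and 4.93 FPKM in control samples, with the lowest siEzh2 sample just under the highest control sample.

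Summed over a cluster, the level of cluster A was 53.6 ± 1.15 FPKM in siEzh2 and 53.9 ± 1.66 FPKM in control samples (SD, n = 3 each), and the groups overlapped. Cluster B had 56.0 ± 0.362 FPKM in siEzh2 and 60.9 ± 2.32 FPKM in control samples, a log2 ratio of −0.12, and cluster C had 13.95 ± 0.205 and 15.8 ± 1.14 FPKM in siEzh2 and control samples, a log2 ratio of −0.18 (SD, n = 3 each). In both every siEzh2 sample was below every control sample. Without Hoxb6 the sum of cluster B was 37.6, 36.04 and 36.99 FPKM in siEzh2 samples and 39.9, 41.6 and 36.5 FPKM in control samples. The groups then overlapped, while the log2 ratio was −0.09, in place of −0.12. Cluster C without Hoxc6 still showed no overlap. Over all 36 genes the sum was 125, 123 and 123 FPKM in siEzh2 samples, against 131, 134 and 128 FPKM in control samples (log2 ratio −0.08). As a share of this sum, cluster A held 42.9% to 44.0% in siEzh2 and 41.0% to 41.6% in control samples. Cluster B held 44.6% to 45.8% in siEzh2 and 46.0% to 47.4% in control samples.

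Of 11 listed TALE cofactors 10 were expressed, of which 1 was higher, 2 were lower and 7 did not pass the test. The 3 called of 10, beside 46.9% called over all tested genes, are from few genes and are not read as a result. Meis2, a partner of Hox proteins on DNA, had 7.25, 7.09 and 7.22 FPKM in siEzh2 samples and 8.77, 8.14 and 8.46 FPKM in control samples (log2 difference −0.21, adjusted p = 0.00581 by limma and Benjamini-Hochberg). Pknox2, a relative of Meis, fell by 0.27 on the log2 scale, and Tgif1, a TALE repressor, rose by 0.69.

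Among 14 tested trithorax group and H3K27 demethylase genes, 3 were higher and 1 lower. This share of 28.6%, beside 46.9% of all tested genes, is from few genes and is not read as a result either. Kmt2a, the methyltransferase that maintains Hox transcription, rose by 0.22 on the log2 scale (6.39 ± 0.0750 FPKM in siEzh2 and 5.33 ± 0.209 FPKM in control samples, SD, n = 3 each, adjusted p = 0.00426 by limma and Benjamini-Hochberg). Dot1l, which methylates H3K79, rose by 0.25 and Kdm6b, which removes the Polycomb mark, by 0.18, while Psip1, which tethers Kmt2a to chromatin, fell by 0.31. The median over this list was 0.05.

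Genes of retinoic acid, a classical inducer of low-numbered Hox genes, included differences larger than that of any Hox gene. With the caudal (Cdx) factors and Gdf11, 12 were tested, of which 2 were higher and 5 lower, with a median of −0.09. The share called, 58.3%, was near the 46.9% of all tested genes. Aldh1a1, which makes retinoic acid, had 78.9, 78.6 and 78.8 FPKM in siEzh2 samples, against 145, 144 and 142 FPKM in control samples (log2 difference −0.86, adjusted p = 3.62e-05 by limma and Benjamini-Hochberg). Cyp26b1, which degrades retinoic acid, fell by 0.41, whereas Aldh1a3, another enzyme of synthesis, rose by 0.81 to 2.50 ± 0.139 FPKM in siEzh2 samples, against 0.9999 ± 0.141 FPKM in control samples (SD, n = 3 each). Cdx1 and Cdx4 were under 0.5 FPKM in every sample.

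Of 14 tested genes that flank the clusters, 3 were higher and 5 lower, with a median log2 difference of −0.03. This share, 57.1%, was likewise near the 46.9% of all tested genes. Next to cluster D, Mtx2, a mitochondrial import gene, had 6.91 ± 0.322 FPKM in siEzh2 and 9.72 ± 0.509 FPKM in control samples (SD, n = 3 each, log2 difference −0.44, adjusted p = 0.00105 by limma and Benjamini-Hochberg). Near cluster A, Jazf1, a zinc finger gene, fell by 0.70. On the 2 sides of cluster C, Hnrnpa1, an RNA-binding protein, rose by 0.43 and Calcoco1, a coiled-coil coactivator, fell by 0.32.

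Markers of other cell types were read in the same samples. Of 9 tested smooth muscle markers 7 were lower and 1 was higher, and the 12 listed summed to 772 to 807 FPKM in siEzh2 and 1040 to 1070 FPKM in control samples. The 8 listed fibroblast and adventitial markers summed to 405 to 417 FPKM in siEzh2 and 422 to 442 FPKM in control samples, with 1 higher and 4 lower of 7 tested. Ly6a held most of this sum, at 294 FPKM in siEzh2 and 272 FPKM in control samples, not called. Pdgfra was the 1 called higher (37.45 and 28.6 FPKM in siEzh2 and control samples). Dpep1 (50.6 and 82.1 FPKM) and Dpt (10.2 and 24.8 FPKM) were among the 4 called lower. The 8 listed endothelial markers summed to 4.61 to 5.28 FPKM in siEzh2 and 3.95 to 4.26 FPKM in control samples. Kdr, an endothelial growth factor receptor, rose to 1.55 FPKM in siEzh2 samples, against 1.11 FPKM in control samples, and Emcn (endomucin) fell to 1.28 FPKM, against 1.75 FPKM. The other 6 were under the filter. Among them Vwf averaged 0.932 and Tek 0.857 FPKM in siEzh2 samples, against 0.417 and 0.332 FPKM in control samples, with no overlap. Pecam1 averaged 0.0789 FPKM in siEzh2 and 0.170 FPKM in control samples, also with no overlap, and Cdh5 0.196 and 0.223 FPKM, with overlap. Cldn5 was listed at 0 in every siEzh2 sample and averaged 0.102 FPKM in control samples, with no overlap. Over all genes under the filter with a read in at least 1 sample, 12.7% had groups that did not overlap. The 7 listed macrophage and leukocyte markers summed to 14.1 to 15.2 FPKM in siEzh2 and 17.2 to 20.5 FPKM in control samples. All 4 tested were called. Lyz2 (lysozyme) averaged 3.40 and Csf1r, a macrophage growth factor receptor, 0.622 FPKM in siEzh2 samples, lower than the 7.98 and 2.01 FPKM of control samples. Cd68 averaged 6.90 and Cd14 3.51 FPKM in siEzh2 samples, higher than the 5.77 and 2.72 FPKM of control samples. Ptprc, the common leukocyte antigen, averaged 0.00416 FPKM in siEzh2 and 0.00397 FPKM in control samples. The share called was 88.9% of tested smooth muscle and 71.4% of tested fibroblast markers, beside 46.9% of all tested genes. The part of these shifts in the Hox values was not tested.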

How the data were processed

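RNA of 6 samples was sequenced from stranded mRNA libraries. The authors deposited 1 table of FPKM per gene and sample, per the file headers. Trimmomatic, HISAT2, HTSeq and Cufflinks, without versions or roles, and the build mm10 are named in the submitters' processing notes. No source used here says whether the counting was by strand.

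The members and gene lists were chosen with earlier results of these data known. The test was limma 3.58.1 (R 4.3.3) on log2(FPKM + 1), without covariates, over all 6 samples and all genes that averaged 1 FPKM or more in either group, and p-values were adjusted by Benjamini-Hochberg over all 11869 genes. Differences are siEzh2 minus control on this scale, which understates the change of low genes; times lower or higher are ratios of mean FPKM. Cluster and position sums were not tested. GENCODE M21 gave coordinates, exon lengths and overlaps, with 27434 (99.8%) of the listed IDs. FPKM times exon length moved in steps that gave whole reads for 98.4% to 98.5% of values under 1000 reads, within 0.02 of a read. A count of 0 allows 3 reads, 0.160 to 0.187 CPM. The chi-square per degree of freedom between samples was 2.14 to 3.29 within groups, above sampling noise, and each sample was counted on its own. Other steps used matplotlib 3.10.9, scipy 1.17.1, numpy 2.4.6 and pandas 2.3.3 in Python 3.11.15.

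Values in every sample are given for called Hox genes, their tested paralogues, the most abundant of each cluster and those at an edge of expression, and in other lists called genes by smallest p. Other per-sample values (Hoxa3, Hoxb7), Hotair and the stretches of cluster B were chosen after their values were seen. Some genes and sequences are not reported here. Alternatives were a pseudocount of 0.1, no filter, a filter of 0.1 FPKM, quantile and median-of-ratios scaling, the replicate number as a block, trend and robust variance, limma-voom on recovered reads, and leaving out each sample.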

Additional observations from a re-analysis of the deposited data

How the results depend on the processing

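The signs of the Hox differences were the same in all 14 alternative settings for every named gene but Hoxa2 (13 settings for Hoxc13, which was under the filter without siEzh2 sample 1). The filter settings, the replicate block and the trend and robust variance leave each estimate as it was, so they could not change a sign. With single samples left out, Hoxa2 ranged from −0.0486 to 0.0921 (lowest without siEzh2 sample 1, and −0.00542 without control sample 3). The count of Hox genes called higher was 0 in place of 1 with no filter, a filter of 0.1 FPKM, quantile normalization, the replicate block and limma-voom, and 0 to 1 with samples left out. The count called lower, 2, was 5 with quantile normalization and with median-of-ratios scaling, 4 with trend and robust variance, 6 with limma-voom, and 2 to 5 with samples left out. In the replicate block fit it was 6, with Hoxa7, Hoxb6, Hoxc6 and Hoxc8 added and Hoxb9 lost. Same-numbered samples deviated together only weakly (correlations 0.028, 0.072 and 0.048), so the numbers were not taken as pairs, although each siEzh2 sample correlated best with the control sample of its number. The log2 ratio of cluster A was −0.12 without Hoxa5, in place of −0.01, and with samples left out −0.03 to 0.02. That of cluster D, from few reads, was −0.51 to 0.39. The difference between Hoxb4 and Hoxa4 was 0.00838 with a pseudocount of 0.1. The cause of these changes was not tested. Of 251 gene values under alternatives, 10 lost a call, 25 gained 1 and 2 changed sign. Depth limits the 17 genes under the filter, which had 200 reads in siEzh2 and 210 reads in control samples together.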
